A study of Mus musculus with 6 samples.

Results

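Adipocyte genes of dermal fat were followed in dorsal skin of *Bmal1*-/- and *Bmal1*+/- mice. The set holds 10 genes, *Adipoq*, *Lep*, *Retn*, *Cfd*, *Plin1*, *Lpl*, *Fabp4*, *Cidec*, *Pnpla2* and *Lipe*, listed by name as genes of the fat cell. The platform annotation pairs 9 of the 10 with a probe set of their own, 1 each, among the 35557 probe sets of the array, and *Cfd*, which encodes the complement protease adipsin, was not analysed here. The study compared 3 *Bmal1*-/- mice, homozygous for a knockout of a core circadian clock transcription factor, with 3 *Bmal1*+/- littermates, which carry 1 copy of the same mutant allele, so that no wild-type skin is among the arrays. All mice were on the C57BL/6J background, sampled at postnatal day 22 and found by histology to be in telogen, when hair follicles rest. *Bmal1*+/- replicate 1 was male and the other 5 mice were female, and for that male the labels give day 23 in one place and day 22 in another. RNA of each mouse, extracted from whole dorsal skin, was hybridised to an array of its own. In whole skin, fewer fat cells and less RNA per fat cell cannot be told apart.

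White fat cells store triglyceride in a single large droplet and release it again as fatty acids. In mouse skin they form a layer beneath the dermis that thickens as hair follicles grow and thins when they rest, so that its amount varies with the hair growth cycle. The layer also secretes hormones, among them leptin and adiponectin. BMAL1 pairs with CLOCK and activates transcription through the E-box, and clock genes cycle daily in fat as in other tissues.

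The targeted gene, listed as *Arntl*, read 325, 365 and 355 in *Bmal1*+/- replicates 1 to 3 and 569, 609.8 and 664 in *Bmal1*-/- replicates 1 to 3, and it rose in the *Bmal1*-/- mice (log2 difference 0.79, adjusted p = 0.0037 from limma). This does not check the genotype labels, since the position of the probes with respect to the mutated part of the gene was not stated in the sources at hand. The median intensity of an array was between 219 and 235.5, and from 2.58% to 3.34% of an array's values fell under 16, the offset added before taking log2. Intensities of different probe sets are not comparable as levels, and each gene is therefore compared only with itself between mice.

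Promoters of the set were searched for the DNA elements of the clock and of fat cell transcription factors. RefSeq promoter sequence (build GRCm38.p6) was at hand for 8 of the 10 genes at 10 transcription start sites, with *Cidec* and *Lipe* having 2 starts each and *Lpl* and *Fabp4* none. In the 250 bases before each start, both strands were searched for the E-box CACGTG, the D-box TTATGTAA, the C/EBP palindrome TTGCGCAA, the PPAR:RXR direct repeat (AGGTCA repeated after 1 base of any kind) and the TATA box TATAAA. Among all 32851 promoters of that length, 6.02% held the E-box, 0.819% the D-box, 0.164% the C/EBP palindrome, 0.0335% the direct repeat and 12.4% the TATA box. Of the 10 promoters, 2 held a match. These were the *Lep* promoter (chr6:29059971-29060220, + strand), with the C/EBP palindrome 55 bases before the start, and the promoter of the first *Lipe* start (chr7:25395988-25396237, − strand), with an E-box 155 bases before it. Both are shown because they hold the matches, in capitals, and the *Pnpla2* promoter (chr7:141454938-141455187, + strand), which holds none of the 5, because *Pnpla2* was the gene of the set whose genotypes did not overlap. A match is a description of the sequence and not evidence of binding.
Lep: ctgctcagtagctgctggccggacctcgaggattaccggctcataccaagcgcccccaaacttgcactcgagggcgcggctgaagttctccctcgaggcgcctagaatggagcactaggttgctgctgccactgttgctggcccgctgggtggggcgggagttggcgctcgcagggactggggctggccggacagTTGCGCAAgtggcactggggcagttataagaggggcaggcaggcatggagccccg
Lipe: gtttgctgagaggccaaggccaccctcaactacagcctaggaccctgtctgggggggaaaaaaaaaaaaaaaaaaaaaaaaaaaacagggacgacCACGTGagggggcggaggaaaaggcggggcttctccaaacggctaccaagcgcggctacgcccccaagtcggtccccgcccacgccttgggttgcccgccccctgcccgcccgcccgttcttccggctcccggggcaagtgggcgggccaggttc
Pnpla2: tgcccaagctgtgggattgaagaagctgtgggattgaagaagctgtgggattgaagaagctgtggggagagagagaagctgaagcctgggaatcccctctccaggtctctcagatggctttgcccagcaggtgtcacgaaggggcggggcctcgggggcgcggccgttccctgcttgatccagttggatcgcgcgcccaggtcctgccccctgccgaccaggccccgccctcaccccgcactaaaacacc

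No adipocyte gene of the set was called different between the genotypes. With the limma threshold at an adjusted p of 0.05, 0 of the 9 measured genes were higher and 0 were lower, while 0.0982% of the 23410 tested probe sets were called higher and 0.132% lower. At an unadjusted p under 0.05, 1 of the 9, *Pnpla2*, was higher and 0 were lower, against 4.17% of all probe sets higher, 4.6% lower and 8.77% in either direction. A regularised test built after Cyber-T, the program of the study's methods, called 0 of the 9 as well at an adjusted p of 0.05. The study itself set its cutoff at an unadjusted p of 0.001. The difference in log2(intensity + 16), *Bmal1*-/- minus *Bmal1*+/-, was above 0 for 7 of the 9 genes, as it was for 54.7% of all probe sets, and its median was 0.093 over the 9 genes and 0.014 over all probe sets. The differences ran from −0.87 for *Lep* to 0.43 for *Retn*. In 1 of the 9 genes, *Pnpla2*, every *Bmal1*-/- mouse lay above every *Bmal1*+/- mouse, and in 0 of the 9 every *Bmal1*-/- mouse lay below, against 6.99% and 7.68% of all probe sets. For 3 mice against 3, an exact permutation test cannot give a p below 0.1.

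**Figure D1:**
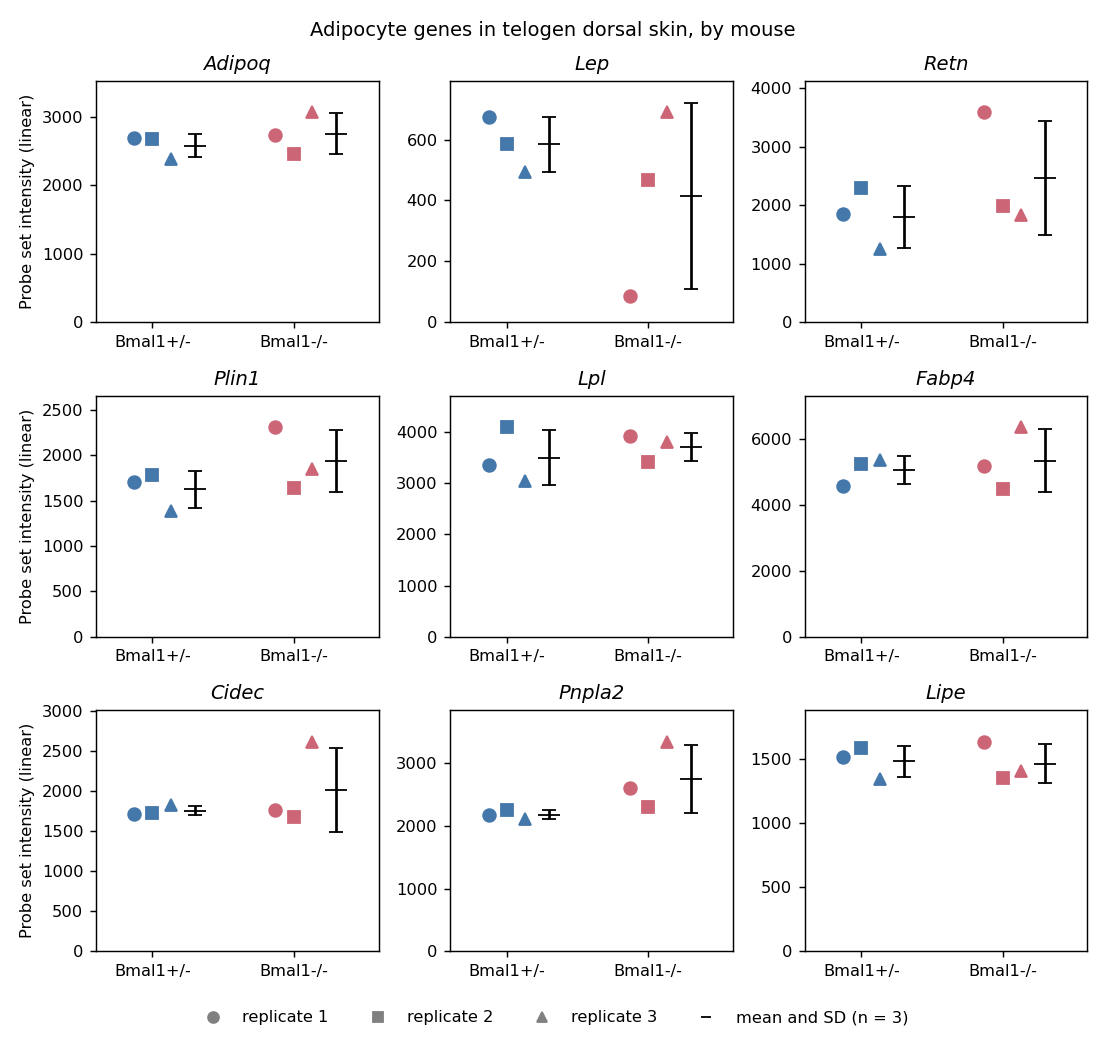
Probe set intensity (vertical axes, linear scale from 0, a different range in each panel) of the 9 measured adipocyte genes in each mouse, with *Bmal1*+/- in blue and *Bmal1*-/- in red, marker shapes for replicate numbers, and black bars for each genotype's mean ± SD (n = 3). The genotypes overlap in each panel but that of *Pnpla2*, and the *Lep* value of *Bmal1*-/- replicate 1, at 86.3, lies far below the other 5.

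Of the fat cell hormones, *Lep* and *Retn* had the widest spread between mice of the 9 genes and *Adipoq* the narrowest within a genotype. *Adipoq* encodes adiponectin, an insulin-sensitising hormone made by fat cells, and its probe set (10434747) read 2694, 2672.5 and 2384 in *Bmal1*+/- replicates 1 to 3 and 2745, 2460.1 and 3067 in *Bmal1*-/- replicates 1 to 3. *Bmal1*-/- replicates 1 and 3 were above each *Bmal1*+/- mouse, and replicate 2 lay among them. On the log2 scale the difference was 0.090 (SE 0.085, 95% interval −0.10 to 0.28, adjusted p = 0.79 from limma), so that the interval of the *Bmal1*-/- level ran from 0.933 to 1.21 times that of *Bmal1*+/-. It was 0.011 without *Bmal1*-/- replicate 3, 0.033 without *Bmal1*+/- replicate 3 and 0.17 without *Bmal1*-/- replicate 2.

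*Lep* encodes leptin, the hormone that reports fat stores to the brain. Its probe set (10536789) read 675, 584 and 493 in *Bmal1*+/- replicates 1 to 3 and 86.3, 467 and 689 in *Bmal1*-/- replicates 1 to 3. The highest and the lowest of the 6 values both belonged to *Bmal1*-/- mice, and replicate 1 alone was low, at −2.53 (log2) relative to the average of the remaining 5 mice. *Bmal1*-/- minus *Bmal1*+/- was, in log2, −0.87 (SE 0.56, 95% interval −2.13 to 0.40, adjusted p = 0.69 from limma). Without *Bmal1*-/- replicate 1 it was −0.029 (adjusted p = 0.97 from limma, with adjusted p of 0.52 to 0.97 over the 16 alternative settings), and without *Bmal1*-/- replicate 3 it was −1.42. The spread of *Lep* within a genotype, an SD of 1.06 on the log2 scale, exceeded that of 99.97% of the tested probe sets, for which the median SD was 0.11.

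*Retn* encodes resistin, a hormone secreted by mouse fat cells. Its probe set (10569870) read 1858, 2295 and 1248 in *Bmal1*+/- replicates 1 to 3 and 3589, 1984 and 1833 in *Bmal1*-/- replicates 1 to 3. Here *Bmal1*-/- replicate 1, the mouse with the lowest *Lep*, was the highest, 0.98 above the mean of the other 5 on the log2 scale. Between genotypes the log2 difference was 0.43 (SE 0.26, 95% interval −0.16 to 1.02, adjusted p = 0.67 from limma), 0.13 without that mouse and 0.19 without *Bmal1*+/- replicate 3. The within-genotype SD of *Retn*, 0.49, exceeded that of 99.6% of the tested probe sets.

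The proteins of the lipid droplet overlapped between genotypes. *Plin1* encodes perilipin 1, which coats the droplet and guards it from lipases, and its probe set (10564795) read 1704, 1778 and 1389.9 in *Bmal1*+/- replicates 1 to 3 and 2311, 1644 and 1852 in *Bmal1*-/- replicates 1 to 3. *Bmal1*-/- replicate 1 was the highest of the 6, as it was for *Retn*. The log2 difference was 0.24 (SE 0.13, 95% interval −0.039 to 0.53, adjusted p = 0.63 from limma), 0.11 without that mouse and 0.14 without *Bmal1*+/- replicate 3. *Cidec* encodes a protein that fuses droplets into a single large one, and its probe set (10546929) read 1713, 1726 and 1820.4 in *Bmal1*+/- replicates 1 to 3 and 1759, 1670.4 and 2616 in *Bmal1*-/- replicates 1 to 3. Of these, 5 lay close together and *Bmal1*-/- replicate 3 stood above them. On the log2 scale the difference was 0.17 (SE 0.14, adjusted p = 0.77 from limma) and turned to −0.032 without that mouse, while it was 0.29 without *Bmal1*-/- replicate 2.

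*Pnpla2* and *Lipe* encode the lipases that release the fatty acids of stored triglyceride one after the other, adipose triglyceride lipase and hormone-sensitive lipase. The *Pnpla2* probe set (10558921) read 2169, 2257 and 2116 in *Bmal1*+/- replicates 1 to 3 and 2599.9, 2301 and 3347 in *Bmal1*-/- replicates 1 to 3, a mean of 2181 ± 71.2 against 2749 ± 539 (SD, n = 3 each). Every *Bmal1*-/- mouse was above every *Bmal1*+/- mouse, by a narrow margin for replicate 2. *Bmal1*-/- minus *Bmal1*+/- was, in log2, 0.31 (SE 0.12, 95% interval 0.056 to 0.57, exact permutation p = 0.1, adjusted p = 0.47 from limma), and it did not pass the test. Without *Bmal1*-/- replicate 3 it was 0.16. The *Lipe* probe set (10561031) read 1512, 1586.7 and 1346 in *Bmal1*+/- replicates 1 to 3 and 1635, 1351 and 1405 in *Bmal1*-/- replicates 1 to 3. The genotypes covered the same range, with a log2 difference of −0.019 (SE 0.087, 95% interval −0.21 to 0.18, adjusted p = 0.97 from limma), and its sign turned without *Bmal1*+/- replicate 2 and without *Bmal1*-/- replicate 2 or 3. Among the 8 genes with promoter sequence at hand, *Lipe* alone had an E-box, at the first of its 2 starts and not at the other. *Pnpla2* has none of the 5 elements in the window searched.

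Capture and transport of fatty acids was measured by *Lpl* and *Fabp4*. *Lpl* encodes lipoprotein lipase, which frees fatty acids from circulating lipoproteins and is also made by muscle, and its probe set (10572130) read 3350.1, 4098 and 3047 in *Bmal1*+/- replicates 1 to 3 and 3920.1, 3406 and 3804 in *Bmal1*-/- replicates 1 to 3. The highest and the lowest values were both of *Bmal1*+/- mice. Between genotypes the log2 difference was 0.093 (SE 0.10, 95% interval −0.14 to 0.32, adjusted p = 0.83 from limma) and with 1 array left out it ran from −0.00073 without *Bmal1*+/- replicate 3 to 0.21 without *Bmal1*+/- replicate 2. *Fabp4* encodes the fatty acid binding protein of fat cells, found also in endothelial cells and macrophages, and its probe set (10497265) read 4549, 5229 and 5351 in *Bmal1*+/- replicates 1 to 3 and 5179.9, 4462 and 6348 in *Bmal1*-/- replicates 1 to 3. The highest and the lowest values were both of *Bmal1*-/- mice. The log2 difference was 0.068 (SE 0.12, 95% interval −0.19 to 0.33, adjusted p = 0.90 from limma), and it turned to −0.0042 without the male mouse and to −0.065 without *Bmal1*-/- replicate 3, while it was 0.19 without *Bmal1*-/- replicate 2.

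**Figure D2:**
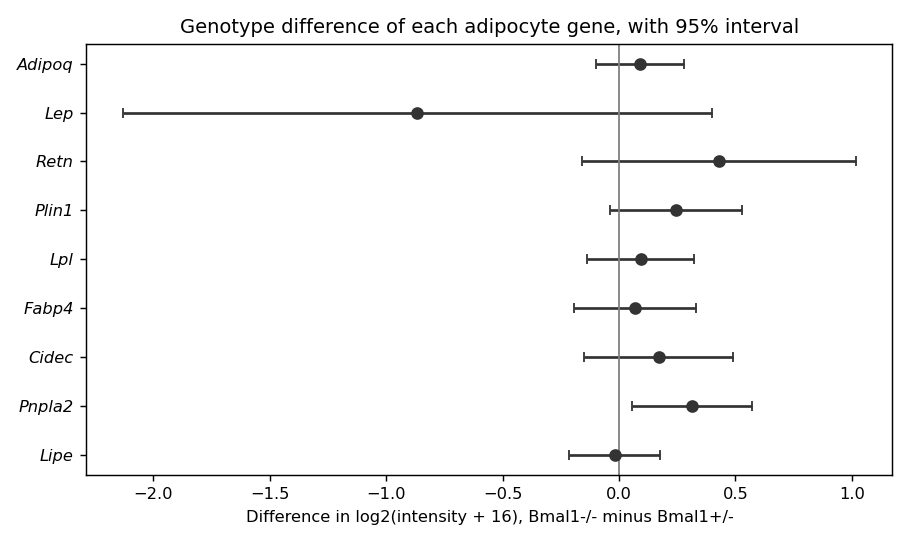
Difference in log2(intensity + 16), *Bmal1*-/- minus *Bmal1*+/- (horizontal axis), of each of the 9 measured adipocyte genes (points) with the 95% interval of the limma fit (bars). Each interval but that of *Pnpla2*, 0.056 to 0.57, includes 0, and that of *Lep* is the widest, from −2.13 to 0.40.

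The highest and lowest values were gathered in a few mice. *Bmal1*-/- replicate 3 had the highest value of 5 of the 9 genes, *Adipoq*, *Lep*, *Fabp4*, *Cidec* and *Pnpla2*, and *Bmal1*-/- replicate 1 that of 3, *Retn*, *Plin1* and *Lipe*. *Bmal1*+/- replicate 3 had the lowest value of 6 of the 9. The share of all tested probe sets that were highest or lowest on each array was not computed. These counts therefore cannot be read as particular to the set. The third *Bmal1*-/- mouse, replicate 2, had the highest value of 0 of the 9 and the lowest or next lowest of 6, so that the *Bmal1*-/- mice did not move together. On the log2 scale the SD was larger in *Bmal1*-/- than in *Bmal1*+/- mice for 8 of the 9 genes, against 42.9% of all tested probe sets. The genes shared mice and arrays and are not independent of each other.

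The genes of the set fell into patterns over the 6 mice, which are given as a description without a test. Over the 36 pairs of genes the Pearson correlation of log2(intensity + 16) had a median of 0.36 and ran from −0.76 to 0.94, and it was above 0.8 in 5 pairs. In 3 of these the rank correlation (Spearman's rho) was also above 0.7, namely *Retn* with *Lipe* (r = 0.81, rho = 0.83), *Cidec* with *Fabp4* (r = 0.87, rho = 0.94) and *Adipoq* with *Pnpla2* (r = 0.86, rho = 0.77). It was lower for *Retn* with *Plin1* (r = 0.94, rho = 0.60) and for *Cidec* with *Pnpla2* (r = 0.89, rho = 0.26), whose highest values both came from *Bmal1*-/- replicate 3. *Lep* was negatively correlated in 5 of its 8 pairs by Pearson's r and in 3 of 8 by rank, most with *Retn* by both (r = −0.76, rho = −0.54). With *Plin1*, *Lep* had r = −0.70 and rho = 0.029.

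The enzymes of fatty acid and triglyceride synthesis were, like *Retn*, mostly highest in *Bmal1*-/- replicate 1. Of the 16 measured genes of that list, 12 were highest in *Bmal1*-/- replicate 1 and 10 were lowest in *Bmal1*+/- replicate 3. Here too the share of all tested probe sets highest or lowest on those arrays was not computed. *Fasn*, fatty acid synthase, had 9625 in *Bmal1*-/- replicate 1, 3015 in *Bmal1*+/- replicate 3 and 3475 to 6784 in the other 4 mice. *Bmal1*-/- replicate 1 thus combined the lowest *Lep* of the series with the highest *Retn*, *Plin1* and *Fasn*. *Nnat*, which encodes neuronatin, a membrane protein of the endoplasmic reticulum, was singled out after its values were seen. It read 704, 329.7 and 1412 in *Bmal1*+/- replicates 1 to 3 and 54.5, 337 and 925 in *Bmal1*-/- replicates 1 to 3, and like *Lep* it was lowest in *Bmal1*-/- replicate 1.

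**Figure D3:**
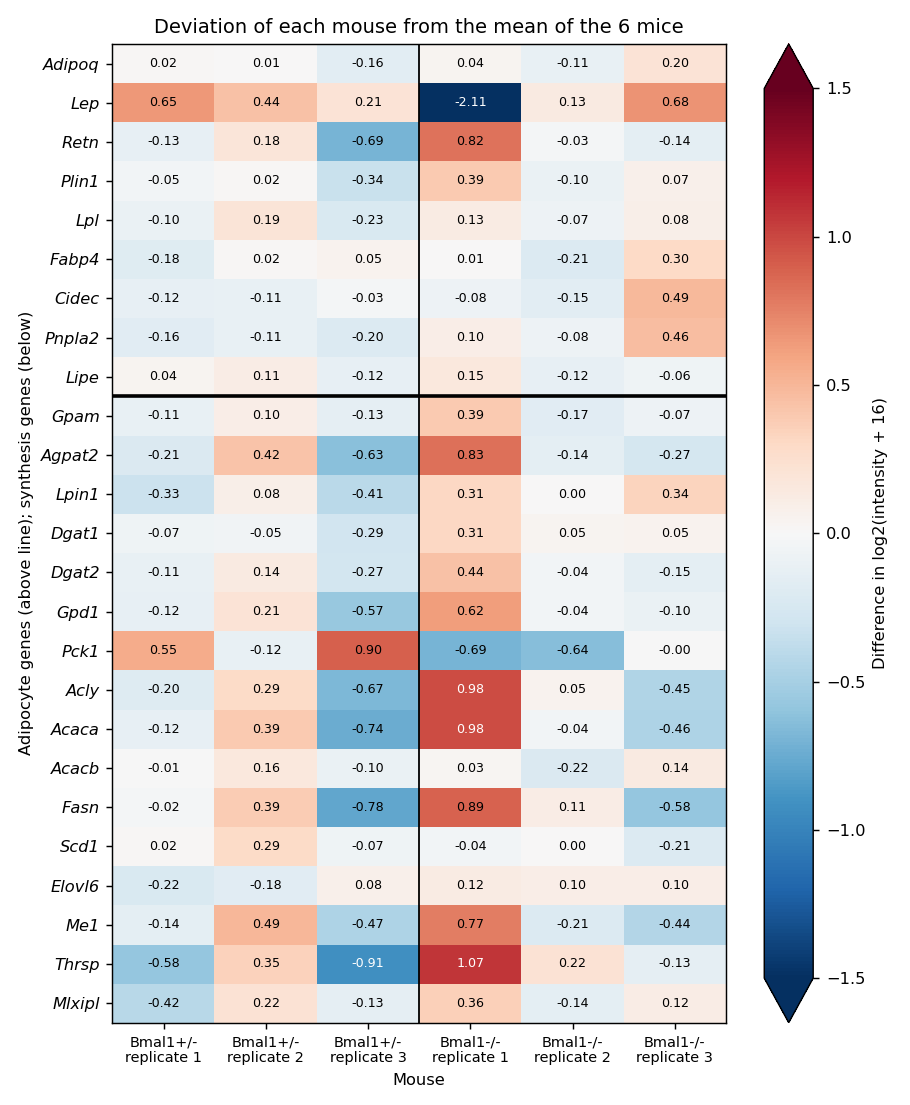
Deviation of each mouse (columns) from the mean of the 6 mice in log2(intensity + 16), coloured and printed in each cell, for the 9 measured adipocyte genes above the line and the 16 genes of fatty acid and triglyceride synthesis below it, colours being cut at ±1.5. *Bmal1*-/- replicate 1 has the lowest *Lep*, at −2.11, and the highest value of 12 of the 16 synthesis genes.

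The remaining genes of fat cell biology were taken from 9 lists, from transcription factors of adipogenesis to precursors, holding 98 genes of which 90 were measured. Of the 90, 1 rose in *Bmal1*-/- skin, 0 fell and 89 did not pass, where 0.0982% of all tested probe sets were called higher and 0.132% lower, and the median log2 difference over the 90 was 0.082. At an unadjusted p under 0.05, 15 of the 90 were higher and 5 lower, and in 14 of the 90 every *Bmal1*-/- mouse lay above every *Bmal1*+/- mouse and in 3 below, against 4.17%, 4.6%, 6.99% and 7.68% of all tested probe sets. The gene that rose was *Angptl8*, an insulin-induced secreted inhibitor of lipoprotein lipase. Its mean intensity was 127 ± 25.6 in *Bmal1*+/- and 409 ± 105 in *Bmal1*-/- mice (SD, n = 3 each), which is 1.56 on the log2 scale (SE 0.18, adjusted p = 0.0067 from limma). It passed under each of the 16 alternative settings. *Lpl*, whose enzyme it inhibits, did not pass.

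**Figure D4:**
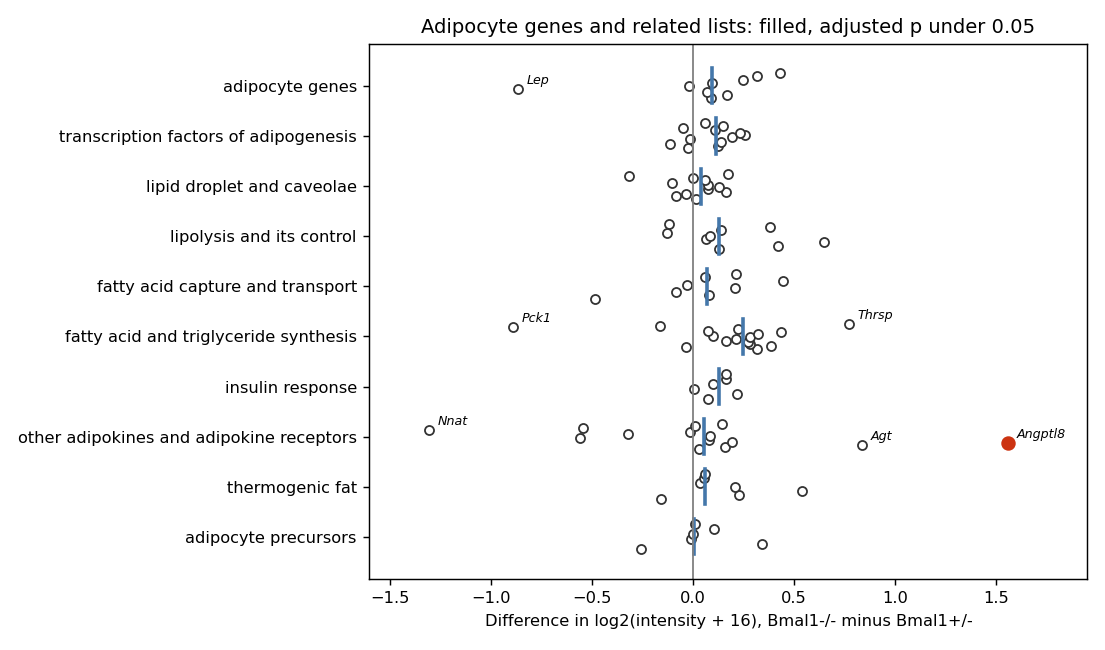
Difference in log2(intensity + 16), *Bmal1*-/- minus *Bmal1*+/- (horizontal axis), of each measured gene (circles) in the set of adipocyte genes and in the 9 related lists, with the median of each list as a blue line and genes at an adjusted p under 0.05 filled in red. *Angptl8*, at 1.56, is the filled circle, and the list medians lie between 0.0056 and 0.25.

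Transcription factors of adipogenesis were measured for 12 of 12 genes, and 0 passed. *Pparg*, the nuclear receptor that directs fat cell differentiation, read 1147, 1270.2 and 1155 in *Bmal1*+/- replicates 1 to 3 and 1454, 1379 and 1437 in *Bmal1*-/- replicates 1 to 3. The genotypes did not overlap, but the log2 difference of 0.26 (SE 0.062, 95% interval 0.12 to 0.39) had an adjusted p of 0.22 from limma. *Ppargc1a*, a coactivator of mitochondrial genes, had a difference of 0.23 with overlapping genotypes, which was 0.0065 without the male *Bmal1*+/- mouse, 0.023 without *Bmal1*-/- replicate 3 and 0.43 without *Bmal1*+/- replicate 2. The median of this list was 0.12.

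Control of lipolysis was measured for 9 of 13 genes, and 0 passed. *G0s2* encodes the inhibitor of adipose triglyceride lipase, the product of *Pnpla2*, and read 587, 623 and 487 in *Bmal1*+/- replicates 1 to 3 and 695, 990.1 and 1022 in *Bmal1*-/- replicates 1 to 3. The genotypes did not overlap, as for *Pnpla2* itself. On the log2 scale the difference was 0.65 (SE 0.14, 95% interval 0.32 to 0.97, adjusted p = 0.18 from limma). *G0s2* passed under 2 of the 16 alternative settings, the Cyber-T type test (adjusted p = 0.017) and without *Bmal1*-/- replicate 1 (adjusted p = 0.027 from limma), with an adjusted p up to 0.43 in the others. *Aqp7*, the channel that lets glycerol out of the fat cell, had a difference of 0.42 (adjusted p = 0.41 from limma), again without overlap, and 0.24 without *Bmal1*-/- replicate 3.

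In the synthesis list 0 of 16 genes passed and the median difference, 0.25, was the largest of the 9 lists. Among the *Bmal1*-/- mice, replicate 1 had the highest value of 12 of the 16 genes, replicate 2 of 0 and replicate 3 of 1. The list median therefore leans on replicate 1, and it was not computed without that mouse. *Acly*, *Acaca*, *Fasn* and *Me1* deviated from the mean of all mice by 0.98, 0.98, 0.89 and 0.77 (log2) in replicate 1. In replicate 3 they deviated by −0.45, −0.46, −0.58 and −0.44, whereas *Lpin1* and *Dgat1* were at 0.34 and 0.051 there. A rise of the list shared by the *Bmal1*-/- mice is thus not shown. *Pck1*, which makes the glycerol backbone for storing fatty acids again, read 699.96, 434 and 893 in *Bmal1*+/- replicates 1 to 3 and 286, 298 and 470.2 in *Bmal1*-/- replicates 1 to 3. Its log2 difference was −0.89 (SE 0.25, adjusted p = 0.31 from limma), against 0.77 for *Thrsp*, a lipogenic protein (adjusted p = 0.57 from limma), whose difference ran from 0.43 without *Bmal1*-/- replicate 1 to 1.13 without *Bmal1*+/- replicate 2. *Pck1* passed with the Cyber-T type test (adjusted p = 0.027) and not with the other 15 settings.

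In the remaining lists, genes of fatty acid capture (0 of 8 passed), droplet and caveolae (0 of 12), insulin response (0 of 6), thermogenic fat (0 of 7) and precursors (0 of 6) were not called. The capture list had *Angptl4*, another inhibitor of lipoprotein lipase, at −0.48 (adjusted p = 0.56 from limma; −0.21 without *Bmal1*+/- replicate 3) and *Slc27a1*, a fatty acid transporter, at 0.44 (adjusted p = 0.37). *Plin4*, of the perilipin family, had −0.31, which was −0.13 without *Bmal1*-/- replicate 1 and −0.54 without *Bmal1*-/- replicate 3. *Plin5*, perilipin of oxidative tissues, had 0.17, which was 0.069 without *Bmal1*-/- replicate 3, 0.10 without *Bmal1*+/- replicate 2 and 0.28 without *Bmal1*+/- replicate 3. *Insr*, the insulin receptor, had 0.22 and *Slc2a4*, the insulin-responsive glucose transporter, 0.17, the latter being 0.0062 without *Bmal1*-/- replicate 1, 0.011 without *Bmal1*+/- replicate 3 and 0.38 without *Bmal1*+/- replicate 2. *Cox8b* and *Cox7a1*, respiratory chain subunits that brown fat and muscle share, had 0.54 and 0.23, and without the male mouse 0.38 and 0.083. Without *Bmal1*-/- replicate 3, *Cox7a1* had 0.059 and *Cox8b* 0.38, and without *Bmal1*+/- replicate 2 *Cox7a1* had 0.39. *Ucp1*, the uncoupling protein that defines brown fat, was at intensities of 50.3 to 73.1 on the 6 arrays. Of the precursor genes, *Dlk1*, an inhibitor of fat cell differentiation, had 0.34 (0.20 without the male mouse and 0.22 without *Bmal1*-/- replicate 1) and *Cd34*, a surface protein of precursors that follicle stem cells and vessels also carry, had −0.26 (adjusted p = 0.24 from limma).

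Among the other adipokines, a pair of genes was singled out after the values were seen. *Agt* encodes angiotensinogen, a precursor hormone of liver and fat, and read 765, 701 and 838 in *Bmal1*+/- replicates 1 to 3 and 1345, 1103 and 1763 in *Bmal1*-/- replicates 1 to 3. Its log2 difference was 0.83 (SE 0.14, adjusted p = 0.071 from limma), and it passed under 4 of the 16 alternative settings. *Cfb*, a complement factor that adipsin, the *Cfd* product, cleaves, read 955, 830.4 and 626 in *Bmal1*+/- replicates 1 to 3 and 535, 513 and 549 in *Bmal1*-/- replicates 1 to 3. Its log2 difference was −0.56 (SE 0.13, adjusted p = 0.20 from limma), and it passed under 2 of the 16. Neither group of values overlapped between genotypes.

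Markers of the cell types that skin holds were read beside these genes. White adipocyte markers were measured for 8 of 9 genes, of which 5 belong to the set itself and the other 3, *Pparg*, *Plin4* and *Cebpa*, to the related lists, so that they are no separate measure of fat. The files give no background level by which to call a probe set present. The summed intensity of this list, in which bright probe sets weigh most, was 11461 to 13213 in *Bmal1*+/- and 12187 to 14405 in *Bmal1*-/- mice. All 7 endothelial markers were highest in *Bmal1*-/- replicate 3, with sums of 4232 to 4573 in *Bmal1*+/- and 4377 to 5642 in *Bmal1*-/- mice, and *Adipoq*, *Lep*, *Fabp4*, *Cidec* and *Pnpla2* were highest in the same mouse. All 6 macrophage markers were lowest in *Bmal1*-/- replicate 1, with sums of 9675 to 10114 against 7864 to 9924, and 6 of 8 sebocyte markers were lowest in that mouse, with sums of 17673 to 19846 against 15613 to 19749. Their part in the differences between mice was not tested. Of 8 striated muscle markers, 7 were highest in *Bmal1*+/- replicate 2, the mouse with the highest *Lpl*, with sums of 69577 to 88844 against 72603 to 81778. The sums of 5 fibroblast markers were 65122 to 72182 against 59683 to 67230.4, those of 5 epidermal markers 43079.8 to 47739 against 40829 to 45773, and those of 6 anagen follicle markers 1067 to 1321 against 1036 to 1181. Bright probe sets weigh most in these sums too. Of the 5 epidermal markers 1, *Lor*, was higher in *Bmal1*-/- mice, by 0.17 on the log2 scale (adjusted p = 0.45 from limma). None of these 53 markers of the 8 lists passed the test. The counts of markers highest or lowest in a mouse also lack the share of all tested probe sets, which was not computed.

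The genes most like the set over the 6 mice were found by the Pearson correlation of log2(intensity + 16) with the mean of the 9 scaled genes, among 16921 probe sets with a mean intensity of at least 100. The 8 closest were *Dlst* (r = 0.994), *Mrps23*, *Sort1*, *Pmpca*, *Echs1*, *Rhot1*, *Map3k10* and *Nfs1* (r = 0.977). They were picked from 16921 candidates over 6 mice, and no test was made of them. *Adipoq* was the closest gene of the set, at rank 52 (r = 0.946), and *Lep* the least like it (r = −0.18). Each gene of the set is itself part of the mean it is compared with, which raises its correlation.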

How the data were processed

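Skin RNA of 6 mice, 3 of each genotype, was hybridised to Affymetrix Mouse Gene ST arrays, 1 per mouse. The values the authors deposited are a linear intensity for each probe set. The submitters' processing notes name PLIER 2.0 and Affymetrix Expression Console 1.1. How background was corrected, how arrays were normalized to each other, any filters and the genome build were not given in the sources used here, and they set how far a difference between arrays can be read as one between mice. The transform log2(intensity + 16) was applied with no further normalization, which understates changes of dim genes. The 23410 probe sets with a gene name in the platform annotation were fitted in limma 3.58.1 (R 4.3.3) using eBayes with a trend on intensity, two-sided, with Benjamini-Hochberg adjustment. The probe set of highest mean intensity represented a gene. Exact permutation tests used scipy 1.17.1 in Python 3.11.15. The number of arrays limits the precision. The 16 alternative settings changed the offset (1 or 64), normalization, filter, rows, variance model, test (Cyber-T type, window 101, prior weight 10), replicate block or sex term, or left out 1 array. Members and lists were chosen with earlier results of these data known. Named genes were the members, called list genes (or else the 2 largest differences of a list) and the 8 genes most like the set. *Fasn*, *Ucp1*, *Nnat*, *Agt* and *Cfb* fall outside this rule and were chosen after their values were seen. The procedure was tested on simulated data in which each probe set was drawn independently. Genes that move together between mice were not imitated there.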

Additional observations from a re-analysis of the deposited data

How the results depend on the processing

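None of the 9 measured adipocyte genes was called under any of the 16 settings, and their median log2 difference stayed between 0.011 and 0.19 when 1 array was left out. Of the 9 genes, 5 kept their sign under the 16 settings. *Fabp4* turned to −0.0042 with the sex term, which removes the male mouse, and likewise without *Bmal1*+/- replicate 1, and to −0.065 without *Bmal1*-/- replicate 3. *Cidec* turned to −0.032 without *Bmal1*-/- replicate 3 and *Lpl* to −0.00073 without *Bmal1*+/- replicate 3, the other extremes with 1 array left out being 0.29 and 0.21. *Lipe* turned to 0.032 without *Bmal1*+/- replicate 2, to 0.036 without *Bmal1*-/- replicate 2 and to 0.0082 without *Bmal1*-/- replicate 3, and its lowest value was −0.10 without *Bmal1*-/- replicate 1. The cause was not tested.

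Of the 90 other fat cell genes, 1 was called in the fit as reported, 5 with the Cyber-T type test (*Angptl8*, *Agt*, *Cfb*, *G0s2* and *Pck1*), 2 with median scaling and 2 with the replicate number as a block (*Angptl8* and *Agt* in both), and 1 to 2 when 1 array was left out, the added gene being *Cfb* without *Bmal1*+/- replicate 3, *G0s2* without *Bmal1*-/- replicate 1 and *Agt* without *Bmal1*-/- replicate 2. Over all 23410 probe sets, 54 were called in the fit as reported, 134 with the Cyber-T type test, 71 with median scaling, 54 with the block, 38 to 57 with 1 array left out, 27 without the variance trend and 34 of 35557 over all rows. The labels do not say whether mice with the same replicate number were paired. The deviations of same-numbered mice from their group means correlated at 0.078, −0.35 and 0.056. Deviations from a mean of 3 mice are tied to each other, so these values cannot decide whether the mice were paired. The block called 0 of the 9 genes, as did the fit without it. With 3 mice of each genotype the intervals are wide, and a difference that did not pass is not shown to be absent.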
